A study of Arabidopsis thaliana with 38 samples.

Results

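RNAi-B1 is an *Arabidopsis thaliana* line of the Col-0 accession in which the cytosolic chaperone HSP90 is targeted by RNA interference. It was compared with Control-1 and Control-3, independent lines of the same array experiment that carry the vector without HSP90 sequence. All 9 samples whose titles name these lines were taken (3 of each), out of 38 arrays in the series. Each sample was a pool of the aerial parts of 10 seedlings grown for 14 days on medium in long days, hybridized to 1 ATH-1 array. The RNAi-B construct makes a hairpin from a fragment of the coding sequence of *HSP90.1* around a GFP spacer, driven by the constitutive cauliflower mosaic virus promoter. The control construct holds the GFP fragment without HSP90 sequence, so that RNAi-B1 and both controls share the promoter, the GFP fragment and kanamycin resistance. The controls are not described as making a hairpin. Each line derives from 1 transformant and was propagated to the T3 generation. The insert of RNAi-B1 was mapped 5′ of *AT1G42980*, that of Control-1 to the 3′ UTR of *AT4G10790* and that of Control-3 5′ of *AT1G25570*, so the construct and the insert site of a line cannot be told apart here. RNAi-A2 (2 samples) and RNAi-C1 (3 samples), lines with hairpins from other HSP90 fragments that were grown in the same experiment, entered the fit and the comparison between RNAi lines.

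HSP90 is an abundant chaperone that binds proteins late in their folding, many of them kinases, receptors and transcription factors, and keeps them in a form that can be activated. It works with co-chaperones such as Hop, which links it to HSP70, and SGT1, with which it stabilizes plant immune receptors of the nucleotide-binding, leucine-rich repeat class. HSP90 also binds heat shock factors, and its inhibition is known to release part of the heat-stress response. None of the 4 cytosolic HSP90 genes has a probe set of its own in the gene table used here, so the transcripts targeted by the hairpin are not analysed here.

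The arrays of the 9 samples were alike in scale, with median signals of 171 to 188 and correlations with the median profile of 0.983 to 0.990. Among tissue markers, *RCA* and *PRK*, which encode Calvin cycle proteins of leaves, summed to 33113 to 38618 in RNAi-B1 and to 38623 to 41986 in the controls. Neither of the pair was called (log2 changes of -0.18 each, limma adjusted p = 0.244 and 0.208). The root markers are given beside the genes they touch. Because whole pools were measured, fewer cells of a type and less RNA per cell cannot be told apart.

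In RNAi-B1, 583 probe sets were higher and 243 lower than in the mean of both control lines. Together these 826 were 5.47% of the 15089 tested (3.86% higher and 1.61% lower). Here a probe set is said to be called when its adjusted p from limma was under 0.05, and a change is the difference of log2(signal + 16). Of the 826, 363 detect a single named gene (250 higher and 113 lower), 14 several genes, and 449 have no gene in the table. Most changes were small. The median was 0.54 among increases and -0.51 among decreases, while 98 probe sets rose and 28 fell at least 2-fold. The 3 samples of RNAi-B1 lay outside the range of all 6 control samples for 543 of the higher and 210 of the lower probe sets, where 6.99% and 4.09% of all probe sets tested lay above or below in this way. Leaving out replicate 3 of RNAi-B1 reduced the number called to 444, and leaving out replicate 2 to 487. With the spread estimated over all 35 biological samples of the series, 94 were called.

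The largest increases of named genes were those of *CHI*, *AT3G13610*, *AT5G50360* and *AT1G57630*, and the largest decreases those of *APA1*, *AT4G29780* and *ORA47*. Of the 15 largest increases, 12 or more remained called whichever of the 9 samples was left out, and of the 15 largest decreases all 15 did so, but with all 35 biological samples in the fit 8 and 6 of them remained called. The genes were chosen by their values in these 9 samples, and each such fit kept the genes and the probe sets tested. The counts are therefore no independent test of these genes. Tests were limited to probe sets with a mean signal above 82.1 in RNAi-B1, Control-1 or Control-3. Of the called genes named here, 11 passed this filter through RNAi-B1 alone, namely *AT3G13610*, *AT5G50360*, *AT1G57630*, *BSMT1*, *AT3G28540*, *AT1G65690*, *AT1G26390*, *AT3G16330*, *LEA4-5*, *AT2G38240* and *AT1G42980*, and 2 through Control-1 alone, *AT4G26010* and *AT1G71000*. The line in which such a gene is high decided that it was tested, so that its values are a description of these samples.

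*CHI*, which encodes a putative chitinase, an enzyme class that cleaves the chitin of fungal cell walls, rose more than any other named gene. Its signal was 1330.3, 1302 and 1457 in RNAi-B1, against 212, 198 and 156 in Control-1 and 205, 141 and 202 in Control-3. Every sample of RNAi-B1 was far above every control sample, and the control lines overlapped each other. The change was 2.79 (standard error 0.16, limma adjusted p = 4.93e-07), or 6.89-fold on the scale with the offset. Of 14 listed chitinases and glucanases 5 were tested, and *CHI* alone was called. Among all probe sets tested, 3.86% were called higher and 1.61% lower.

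*AT3G13610* encodes F6'H1, the oxygenase that commits phenylpropanoid precursors to coumarins such as scopoletin. Its signal was 169, 219 and 309 in RNAi-B1. In Control-1 it was 82.5, 27.1 and 38.5, and in Control-3 10.7, 8.77 and 5.34. Both control lines were dim and stood apart from each other, and the gene was tested through RNAi-B1 alone. The change was 2.65 (standard error 0.40, adjusted p = 0.00157), with 1.98 measured against Control-1 and 3.32 against Control-3. Of 25 genes listed for phenylpropanoid and coumarin synthesis 6 were tested. The other 5 were not called, and the median of the list was 0.03. Among all probe sets tested, 3.86% were called higher and 1.61% lower.

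*AT1G57630*, annotated as a defence-response gene, had signals of 170.4, 116 and 122 in RNAi-B1 and of 8.60 to 34.0 in the 6 control samples. Its change was 2.11 (standard error 0.21, adjusted p = 5.03e-05). *AT5G50360*, for which the annotation used gives no function, had 232, 259 and 189 in RNAi-B1 and 10.8 to 42.5 in the control samples, a change of 2.51 (standard error 0.27, adjusted p = 9.21e-05). Both genes were dim in all control samples and were tested through their level in RNAi-B1, with adjusted p = 0.000341 and 0.00056 where no filter was applied. *BSMT1*, the methyltransferase that makes methyl salicylate and methyl benzoate, had 85.6, 91.9 and 95.0 in RNAi-B1 against 2.06 to 36.3 in the controls (1.83, standard error 0.46, adjusted p = 0.0366). *BSMT1* was tested through its level in RNAi-B1 alone. It was not called with no filter (adjusted p = 0.09) or against either control line alone, and its call was kept in 3 of 9 fits with a sample left out.

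Among the other large increases were *AT2G18690* (1.78), *AT3G28540* with an annotated ATPase activity (1.70), *AT1G65690* (1.65), *AT1G26390* with an annotated role in electron transport (1.64), *AT3G16330* (1.63), *AT3G47480* (1.43), *AT2G38240* (1.43) and *AT1G05340* (1.38). In all of them the 3 samples of RNAi-B1 were above the 6 control samples, which the choice of genes required. *AT3G28540* was not called when replicate 1 or replicate 2 of RNAi-B1 was left out, with changes of 1.65 and 1.62, and *AT3G16330* was not called without replicate 2, with 1.53. The plot of 12 leading genes gives the signal in every sample.

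**Figure D1:**
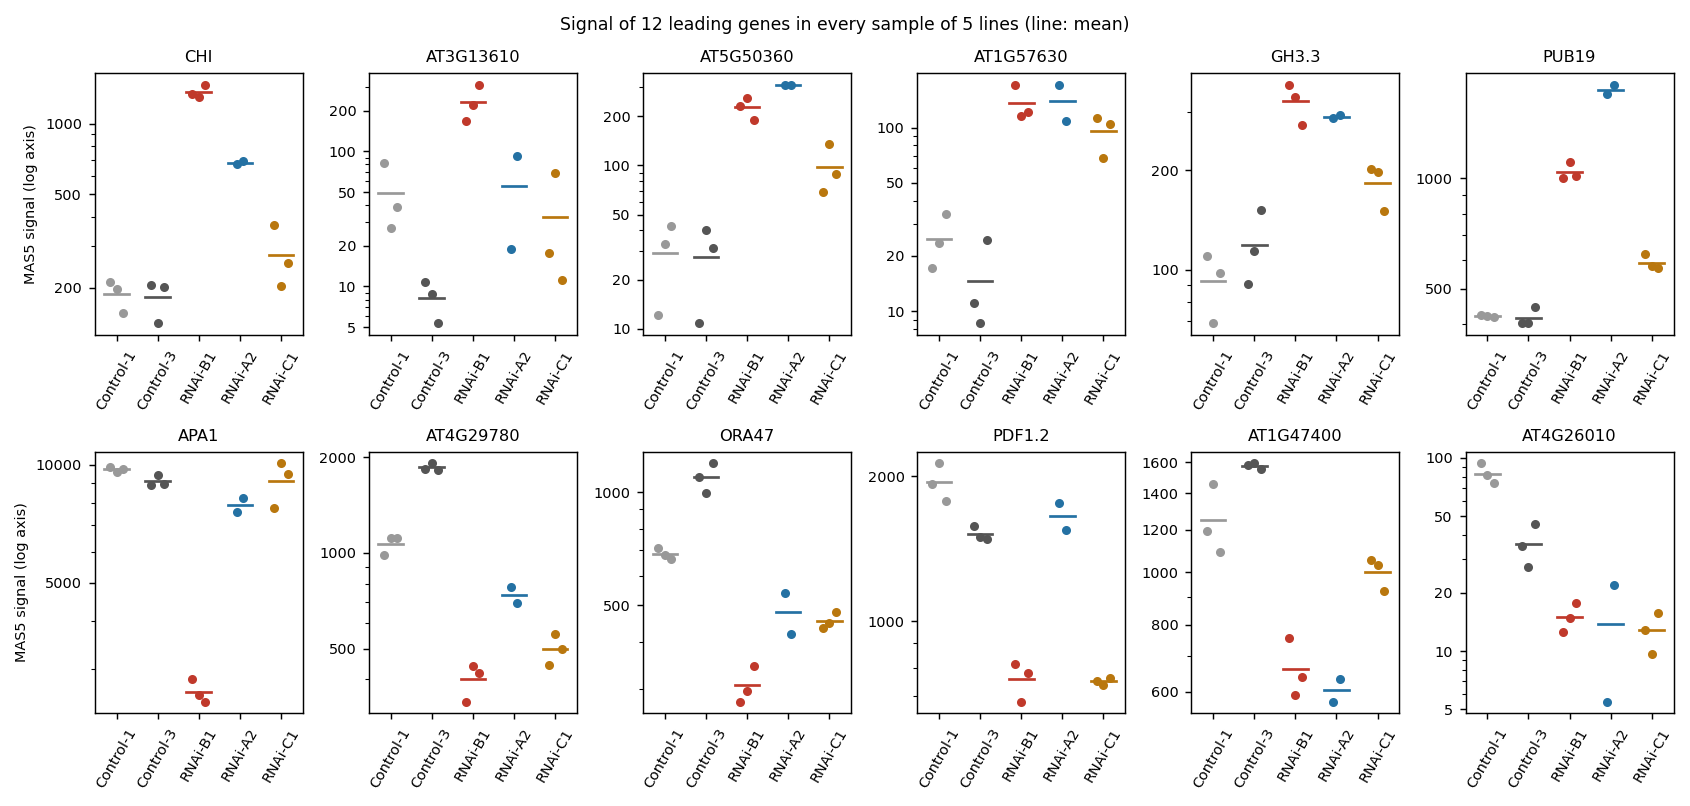
Signal of 12 genes with large or list-defining changes in RNAi-B1, in every sample of 5 lines (points, log axis in signal units) with the mean of each line (horizontal bar). The 3 samples of RNAi-B1 lie above all control samples in the upper row and below them in the lower row, and for *APA1* they lie between 2484 and 2829 while the controls lie between 8900.1 and 9867.

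Of the 37 genes listed for the response to abscisic acid and drought, 10 have a probe set and 9 were tested. Of these 9, 6 were called higher in RNAi-B1, 0 were called lower and 3 did not pass the test, where 3.86% of all probe sets were called higher. Among these 6, *LEA4-5* was tested through its level in RNAi-B1 alone, so that level decided its place in the count. The median change of the 9 was 0.61, while the median over all probe sets tested was 0.0084. *PUB19*, a U-box ubiquitin ligase that acts in the drought response, had signals of 1001, 1110.4 and 1017 in RNAi-B1. It had 425, 420.3 and 420.1 in Control-1 and 403, 403 and 446 in Control-3. The replicates were tight in each line and the control lines were at the same level, which gave a change of 1.28 with a standard error of 0.07 (adjusted p = 1.69e-07).

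*LEA4-5*, a late embryogenesis abundant protein that accumulates in drying tissue, was dimmer and more variable. Its signals were 159, 88.4 and 142 in RNAi-B1, 58.5, 66.7 and 33.0 in Control-1 and 16.3, 41.4 and 9.09 in Control-3 (1.53, standard error 0.27, adjusted p = 0.00417). It was not called against Control-1 alone (1.08). The dehydrin *LTI30* rose from 1363 to 1435 in the control samples to 2083, 2139.8 and 2207 in RNAi-B1, a change of 0.61 with a standard error of 0.06 (adjusted p = 3.85e-05). *AT1G16850* (1.02), *AT4G28140*, annotated to the regulation of transcription (0.85), and the chloroplast cold-protection gene *COR15A* (0.47, adjusted p = 0.0054) were the other members called. The remaining 3 had 0.27 (*COR47*, adjusted p = 0.052), 0.08 (*COR15B*) and 0.05 (*PUB23*). All 6 calls held in each fit with a sample left out, but 1 of them was called with all 35 samples in the fit. Because the list was drawn up with earlier results of these data known, its count is a description of these samples.

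Genes of auxin conjugation changed in both directions. *GH3.3*, which joins amino acids to auxin, had 362, 333 and 275 in RNAi-B1, 110.2, 69.0 and 97.7 in Control-1 and 90.5, 114 and 152 in Control-3, a change of 1.5 (standard error 0.16, adjusted p = 9.21e-05). *WES1*, another conjugating enzyme of this family that is also known as *GH3.5*, rose by 0.58 (adjusted p = 0.00241). *UGT74D1*, a glucosyltransferase that acts on auxins, fell by 0.57 (adjusted p = 0.00985), with 289, 339 and 339 in RNAi-B1 against 369.8 to 547 in the controls, and it was not called without replicate 1 of RNAi-B1 (-0.49). The other 3 tested genes of this list were not called, and the median of all 6 was 0.03. The shares over all probe sets tested were 3.86% called higher and 1.61% called lower.

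The endoplasmic reticulum stress list had 5 tested genes, of which *BZIP60* and *ATERDJ3B* were called, both higher. Over all probe sets tested, 3.86% were called higher. *BZIP60* encodes a membrane-anchored transcription factor of the unfolded protein response. It is also the gene next to *AT1G42980*, at the RNAi-B1 insert, and is described with it further on. *ATERDJ3B*, a co-chaperone of the endoplasmic reticulum that works with BiP, had 1077, 1167 and 1215 in RNAi-B1 and 801 to 979 in the controls (0.36, adjusted p = 0.00768), and was not called without replicate 3 of RNAi-B1 (0.32). The sensors *BZIP17* (0.18) and *BZIP28* (0.20) did not pass the test.

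The tested HSP90 co-chaperones and heat-stress genes showed little change, but most listed members had no tested probe set. Of 16 listed co-chaperone genes, 6 were tested and none was called. *Hop2* had a change of 0.19 (adjusted p = 0.502), *SGT1A* of 0.12 and *AT3G12050*, a listed co-chaperone, of -0.13, and the median was 0.04. Of 35 listed heat-stress genes, 5 were tested. *AT1G71000*, annotated to protein folding, was called lower, where 1.61% of all probe sets tested were called lower. Its signals were 56.0, 47.0 and 47.3 in RNAi-B1 and 71.4 to 119 in the controls (-0.69, adjusted p = 0.00789), and without replicate 3 of RNAi-B1 it was not called (-0.66). The median of this list was -0.13. Of 71 listed *WRKY* genes, 6 were tested and none was called, with *WRKY53* at 0.17 and *WRKY22* at -0.27. The fit could have missed small changes, since on simulated data it called 64% of 1.5-fold and 94% of 2-fold changes.

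Lists that follow other hormones and pathways were mixed. Their counts stand beside shares of 3.86% called higher and 1.61% called lower over all probe sets tested. *GRX480*, a salicylic acid-induced glutaredoxin, was the 1 called of 3 tested genes of salicylic acid response (0.71, adjusted p = 0.0234), and this call was kept in 4 of 9 fits with a sample left out. *OPCL1*, a ligase of jasmonic acid synthesis, was higher by 0.45 (adjusted p = 0.0229) and was kept in 6 of 9. Of the 19 genes listed for this synthesis 2 were tested, and the other, *AIM1*, was not called (-0.0096, limma adjusted p = 0.977). Of 12 tested expansins, which loosen cell walls, *EXLA1* was higher (0.70) and *EXPA8* lower (-0.78). Of 9 tested glutathione S-transferases *GSTU25* (-0.76) and *GSTU26* (-0.58) were lower, the latter kept in 2 of 9 such fits. Of 32 tested UDP-glycosyltransferases *UGT76E12* was higher (0.47) and *UGT73C1* (-0.66), *UGT74D1* (-0.57) and *GT72B1* (-0.38) were lower. Of 13 tested cytochromes P450 of the families listed, *CYP71B6* was higher (0.32) and *CYP71B35* lower (-0.86). *COR27*, a cold- and clock-regulated gene, was the 1 called of 4 tested genes of the circadian clock list. It was higher by 0.40 and was kept in 4 of 9 fits. *AT1G04770*, the 1 called of 2 tested genes of the sulfur limitation list, was lower by 0.31 and was kept in 2 of 9.

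**Figure D2:**
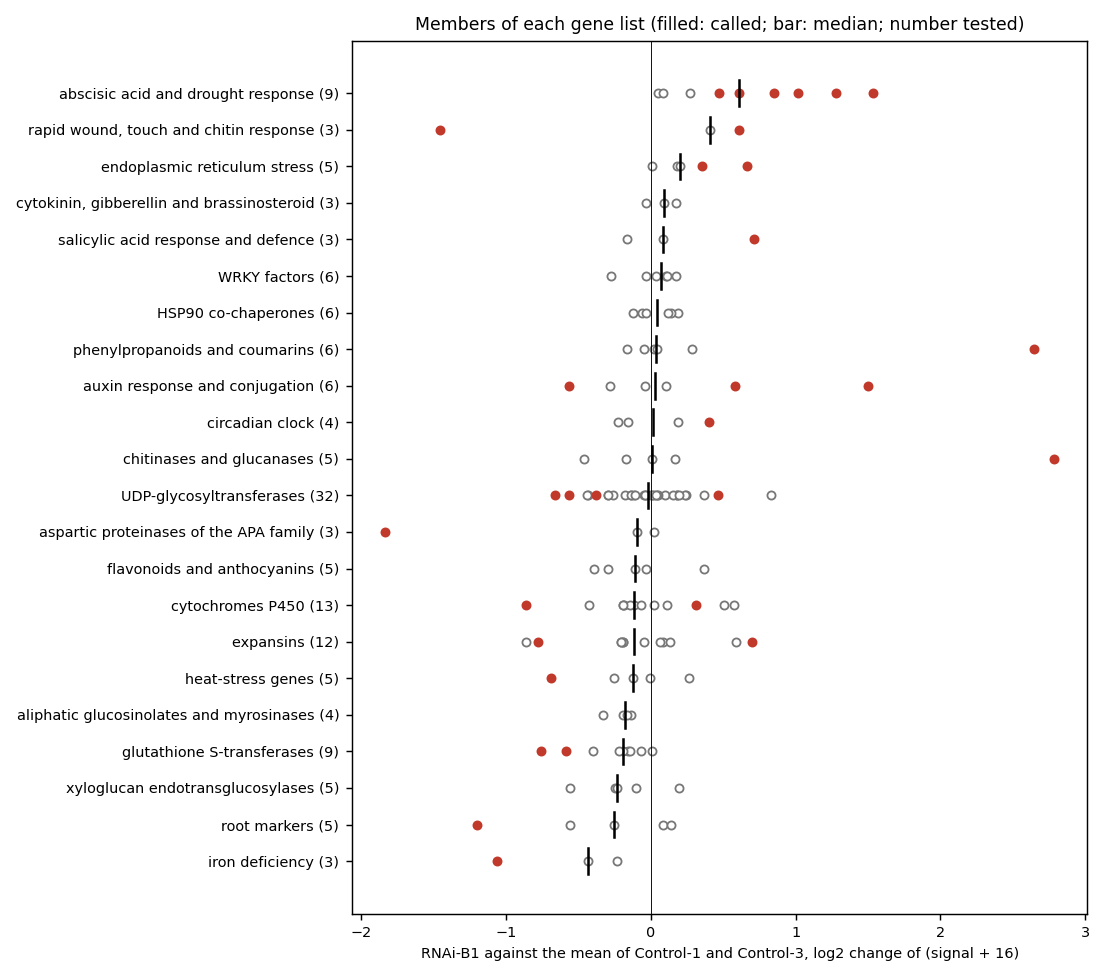
Change in RNAi-B1 against the mean of both control lines for each tested member of the gene lists with at least 3 tested genes, insert loci left out (x axis, difference of log2(signal + 16)). Filled points were called, open points were not, the bar is the median of the list, and the number tested stands beside its name. The abscisic acid and drought list has the highest median, 0.61, and most other medians lie near 0.

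Among decreases, *APA1* stood out. It encodes an aspartic proteinase of the vacuole, and its signal was 2829, 2582 and 2484 in RNAi-B1, 9867, 9613 and 9755 in Control-1, and 8900.1, 9404 and 8958 in Control-3. The samples of RNAi-B1 were low and tight, and both control lines were at about the same level. The change was -1.83 with a standard error of 0.09 (adjusted p = 9.55e-08), and between -1.79 and -1.89 whichever sample was left out. The other tested genes of the list of APA-type aspartic proteinases were not called, with changes of 0.02 and -0.09. Of 9 tested genes within 10 protein-coding loci of *APA1* on either side, 0 were called lower and 1 higher, *AT1G11960* (0.94, adjusted p = 0.00659). Among all probe sets tested, 1.61% were called lower and 3.86% higher. These neighbours were looked up after the value of *APA1* was seen.

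The defensins *PDF1.2* and *PDF1.2b*, small antifungal peptides whose transcripts respond to jasmonic acid and ethylene, were both lower. Of 29 genes listed for the jasmonic acid response they were the 2 tested, so most of the list was not measured. Among all probe sets tested, 1.61% were called lower. *PDF1.2* had 816, 681 and 782 in RNAi-B1, 1929.6, 2128 and 1782 in Control-1, and 1578, 1497 and 1484 in Control-3 (-1.16, standard error 0.08, adjusted p = 2.33e-06). *PDF1.2b* had 2006, 2141 and 1948 in RNAi-B1 against 3509 to 5592 in the controls (-1.06, adjusted p = 5.33e-05). The groups did not overlap for either gene. The probe set of *PDF1.2b* is of a type that can also detect related transcripts, so the 2 values may not be independent.

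Several of the largest decreases were in genes that also differed between the control lines. *AT4G29780* had 341, 441 and 419 in RNAi-B1, 981, 1112 and 1114 in Control-1, and 1830.4, 1911 and 1828 in Control-3. RNAi-B1 was lowest and Control-3 highest, with no overlap among the 3 lines, so that the change of -1.78 is -1.39 against Control-1 and -2.18 against Control-3. *ORA47*, an ERF-type transcription factor of the rapid wound and jasmonic acid response, showed the same order. It had 278, 295 and 346 in RNAi-B1, 712, 681 and 663 in Control-1 and 1096, 994 and 1192 in Control-3 (-1.46, adjusted p = 1.51e-06; -1.13 and -1.79 against each control).

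*STZ*, a zinc finger repressor that is induced by salt, cold and drought, had 805, 1012 and 962 in RNAi-B1, 1328, 1489 and 1526 in Control-1 and 3292, 2922 and 2829 in Control-3. Its change was -0.64 against Control-1 and -1.69 against Control-3. *AT4G27280* (-0.54 and -1.68), *AT1G72920*, annotated as a defence-response gene (-0.66 and -1.94), *AT3G10930* (-0.75 and -1.60), *AT4G27654* (-0.33 and -1.39) and *EXPA8* (-0.56 and -1.01) likewise lay farther from Control-3. Among these, *AT3G10930* and *AT4G27654* were not called against Control-1 alone. The summed signal of the 3 tested genes of the list of rapid wound, touch and chitin responses (*ORA47*, *CML38* and *PUB24*) was 766 to 849.7 in RNAi-B1, 1001 to 1067 in Control-1 and 1309 to 1556 in Control-3. *ORA47* made up most of this sum in the control lines. Of 26 listed genes 3 were tested, and their median change was 0.41. The list was not lower throughout, since *PUB24* was higher in RNAi-B1 (0.61, adjusted p = 0.00472, but 0.44 and adjusted p = 0.0805 against Control-1 alone) and *CML38* was at 0.41 (adjusted p = 0.143). The part of this response in the lower values of *STZ* and *AT4G29780* was not tested.

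Other genes lay farther from Control-1. *AT4G26010*, of the root marker list and annotated to the response to oxidative stress, had 12.5, 14.9 and 17.8 in RNAi-B1, 93.6, 81.5 and 73.9 in Control-1, and 34.9, 27.3 and 45.7 in Control-3 (-1.2, adjusted p = 0.000668; -1.67 and -0.73 against each control). *AT4G22212* (-1.34 and -0.71) and *GSTU25* (-1.10 and -0.42) had the same order. The summed signal of the 5 tested root markers (*PYK10*, *AT4G26010*, *EXPA18*, *UPB1* and *XTH18*) was 2521 to 3109.9 in RNAi-B1, 3842 to 4205 in Control-1 and 2849 to 2963 in Control-3. RNAi-B1 thus overlapped Control-3 and lay below Control-1, and *PYK10*, which makes up most of this sum, had -0.49 against Control-1 and -0.02 against Control-3. Of 7 root markers with a probe set, *EXPA7* and *XTH26* did not pass the filter. *AT4G26010* passed the filter through Control-1 alone. Aerial parts were harvested, and the part of root RNA in its change was not tested.

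*AT1G47400*, of the iron deficiency list, was lower in RNAi-B1 with 756, 591 and 639, against 1193, 1460.2 and 1089.8 in Control-1 and 1580.1, 1591 and 1550.3 in Control-3 (-1.07, adjusted p = 3.92e-05). The other tested genes of this list were the iron-response regulators *BHLH101* (-0.43, adjusted p = 0.0581) and *PYE* (-0.24, adjusted p = 0.149), which did not pass the test. Of 34 listed genes 3 were tested, where 1.61% of all probe sets tested were called lower. *AT3G44450* was lower by 0.89, with -0.88 against Control-1 and -0.91 against Control-3.

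To show how far control lines differ from each other, Control-3 was compared with Control-1 in the same fit. Of 15089 probe sets, 52 were higher and 69 lower in Control-3, or 0.802% (0.345% and 0.457%). The 121 fell to between 56 and 74 without any 1 of the 3 samples of Control-1 or replicate 1 or 2 of Control-3, to 93 without its replicate 3, and to 5 with all 35 samples in the fit. At an unadjusted p under 0.05 there were 1649, against 2669 in the comparison of RNAi-B1 with both lines. Of the 826 called in RNAi-B1, 66 were also called between the controls, 18 of the higher and 48 of the lower. Against Control-1 alone 551 were called in RNAi-B1, or 3.65% (2.56% higher and 1.09% lower), and against Control-3 alone 722, or 4.78% (3.45% and 1.33%). Of the 826, 333 were called in the same direction against each control line by itself (264 higher and 69 lower), and 3 had opposite signs against the controls.

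*AT4G10790*, at the insert of Control-1, was called higher in RNAi-B1 (0.73, adjusted p = 0.000244). Its signals were 878, 1018 and 834 in RNAi-B1, 334, 368 and 364 in Control-1, and 794, 852 and 811 in Control-3. Control-1 was the low line, and RNAi-B1 overlapped Control-3. The change was 1.31 against Control-1 and 0.14 against Control-3, and RNAi-A2 and RNAi-C1 were also near Control-3. The neighbouring loci *AT4G10800* (0.20) and *AT4G10810* (-0.14), and *AT1G25570* (0.09) and *AT1G25550* (-0.20) at the insert of Control-3, were not called.

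**Figure D3:**
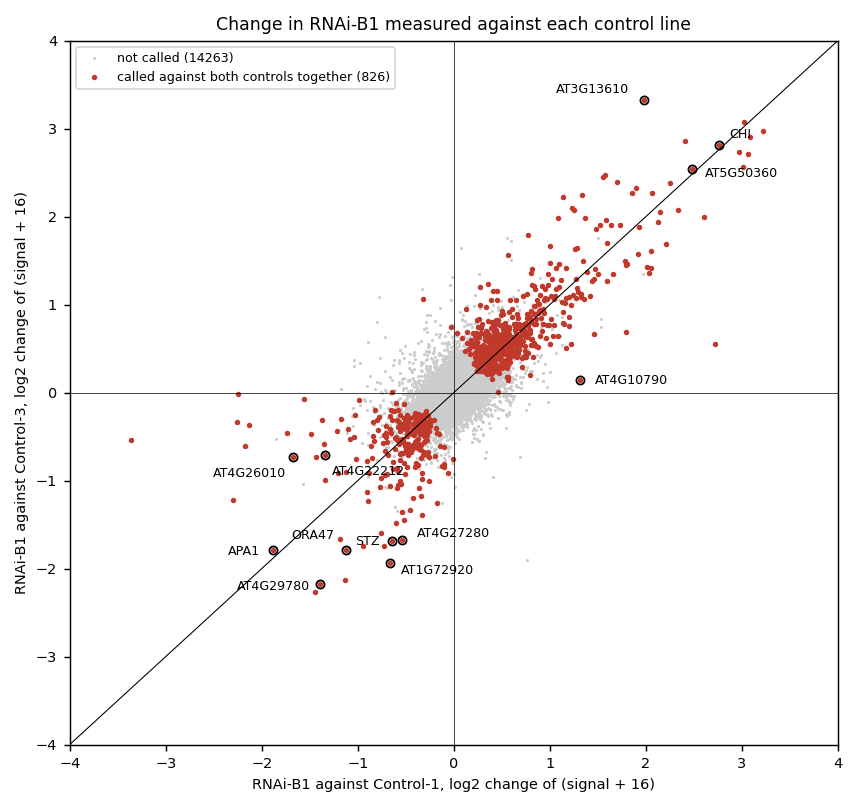
Change in RNAi-B1 against Control-1 (x axis) and against Control-3 (y axis) for 15089 probe sets, as differences of log2(signal + 16). Red points were called against both controls together, and circled points are named. *CHI* and *APA1* lie near the diagonal of equal change, *STZ*, *AT1G72920* and *AT4G27280* lie below it, and *AT4G10790* changed against Control-1 alone.

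At the insert of RNAi-B1 itself, *AT1G42980* was higher, with 125, 98.7 and 130.2 in RNAi-B1 against 65.8, 43.9 and 46.5 in Control-1 and 37.7, 26.2 and 47.6 in Control-3. The change was 1.16 (standard error 0.15, adjusted p = 0.000355), and *AT1G42980* passed the filter through RNAi-B1 alone. The gene, annotated to actin binding, is the one next to the mapped insert, and it was near the control level in RNAi-A2 (32.3 and 40.3) and in RNAi-C1 (34.4, 48.6 and 43.8). *BZIP60*, the adjacent gene, had 2486, 2565 and 2481 in RNAi-B1, 1472, 1614 and 1605 in Control-1, and 1691, 1569 and 1551 in Control-3. No sample of RNAi-B1 came near the control range, and the change was 0.66 with a standard error of 0.06 (adjusted p = 3.92e-05). *BZIP60* was also called higher than the controls in RNAi-A2, with 1952 and 2077.5 (0.35, limma adjusted p = 0.0141). In RNAi-C1 it was not called against the controls (0.13, limma adjusted p = 0.188). *AT1G42960*, on the other side, was not called (0.13). Within 10 protein-coding loci on either side of *AT1G42980*, 3 other genes had a tested probe set, of which *BZIP60* was called higher. Of all probe sets tested, 3.86% were called higher.

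*SBT3.3*, a subtilisin-like protease gene linked to immune priming, rose in RNAi-B1 to 183, 213 and 224, from 70.8, 88.7 and 78.1 in Control-1 and 78.2, 92.0 and 119 in Control-3 (1.11, adjusted p = 0.000108). Its relative *SBT3.5*, which lies 2 loci away, was called higher as well (1.26, adjusted p = 1.65e-05). Genes within 10 loci of *SBT3.3* were looked up after its value was seen. Of 5 with a tested probe set *SBT3.5* was the 1 called, where 3.86% of all probe sets tested were called higher.

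**Figure D4:**
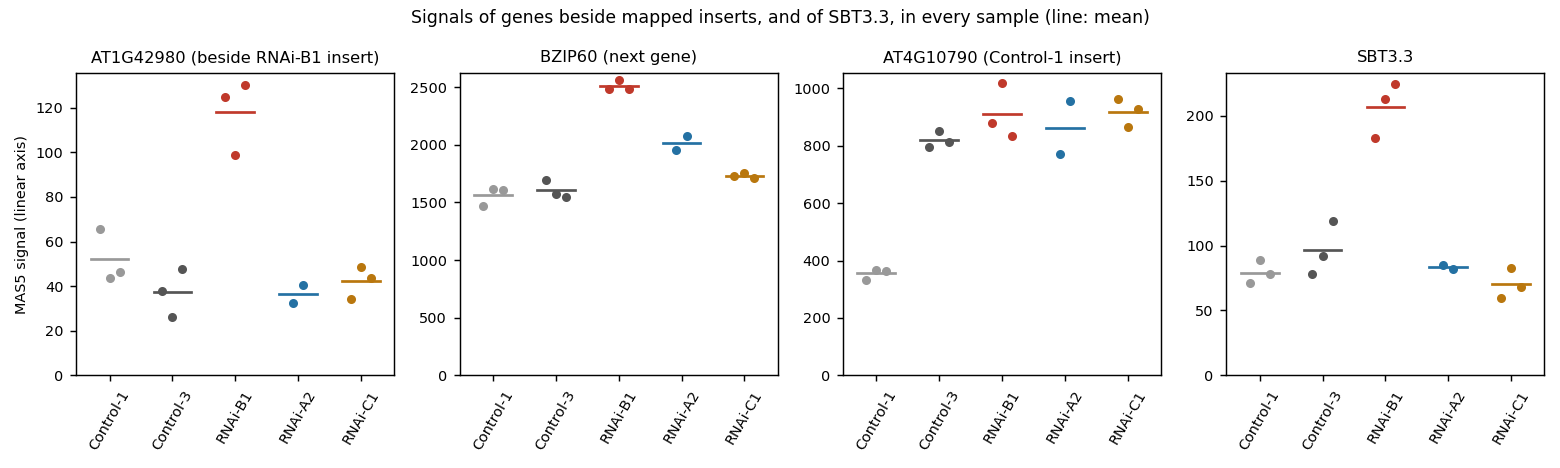
Signals (linear axis from 0, points) of *AT1G42980* and *BZIP60* beside the RNAi-B1 insert, *AT4G10790* at the Control-1 insert, and *SBT3.3*, in every sample of 5 lines, with the mean of each line (bar). *AT1G42980* reaches 98.7 to 130.2 in RNAi-B1 and at most 65.8 in the controls, and *AT4G10790* is low in Control-1, at 334 to 368.

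RNAi-A2 and RNAi-C1 carry hairpins from other HSP90 fragments and were compared with the same control samples, so the values of the 3 lines against the controls are not independent of each other. Against the mean of the controls, 866 probe sets were called in RNAi-A2 (5.74%, of which 3.35% higher and 2.39% lower) and 1923 in RNAi-C1 (12.7%, of which 6.54% higher and 6.2% lower). Probe sets entered all these tests through RNAi-B1, Control-1 or Control-3, so those high only in RNAi-A2 or RNAi-C1 were left out. The counts and their split into higher and lower are limited by this. With no filter, 46 of 22746 probe sets were called higher and 21 lower than in RNAi-A2, and 656 and 401 than in RNAi-C1. The test of a difference between lines is the direct comparison, in which the controls drop out. RNAi-B1 differed from RNAi-A2 in 101 probe sets (0.669%), of which 73 were higher (0.484%) and 28 lower (0.186%) in RNAi-B1. This count fell to 35 without replicate 1 and 45 without replicate 2 of RNAi-A2, and to 62 and 65 without replicates 2 and 3 of RNAi-B1. It was 1 with all 35 samples in the fit, and the methods' t-test with Benjamini-Hochberg adjustment called 0, where limma gave 1567 at an unadjusted p under 0.05. It differed from RNAi-C1 in 1568 (10.4%), of which 930 were higher (6.16%) and 638 lower (4.23%). RNAi-A2 has 2 samples here, so that a difference of the same size is harder to call than with RNAi-C1. The standard errors differed little, as for *APA1* with 0.11 against RNAi-A2 and 0.098 against RNAi-C1. At an unadjusted p under 0.05 limma gave 4104 against RNAi-C1. The part of the sample number in the gap between the counts was not tested.

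Among the large increases, the changes of *CHI* in RNAi-B1, RNAi-A2 and RNAi-C1 were 2.79, 1.80 and 0.51. RNAi-B1 was higher than RNAi-C1 by 2.28 (adjusted p = 1.04e-05), while the difference of 0.99 from RNAi-A2 did not pass the test (adjusted p = 0.0588). For *AT3G13610* the values were 2.65, 0.68 and 0.15, with a called difference from RNAi-C1 (2.50, adjusted p = 0.00514) and none called from RNAi-A2 (1.97, adjusted p = 0.155). *AT1G57630* was at 2.11, 2.13 and 1.66, and neither difference was called. Both *AT3G13610* and *AT1G57630* were tested through their levels in RNAi-B1 alone. *PUB19* was at 1.28, 2.01 and 0.48, below RNAi-A2 by 0.73 (adjusted p = 0.0014) and above RNAi-C1 by 0.81 (adjusted p = 3.77e-05). For *LTI30* the values were 0.61, 0.51 and -0.42, and RNAi-B1 was above RNAi-C1 by 1.02 (adjusted p = 1.19e-06).

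The low level of *APA1* was particular to RNAi-B1 among the 3 lines. The changes were -1.83, -0.25 and -0.06, with 7568 and 8236 in RNAi-A2 and 7756, 10086 and 9464 in RNAi-C1. RNAi-B1 was below RNAi-A2 by 1.58 (adjusted p = 6.04e-05) and below RNAi-C1 by 1.78 (adjusted p = 3.79e-07). *AT1G42980* also differed from both lines, by 1.35 from RNAi-A2 (adjusted p = 0.00423) and by 1.2 from RNAi-C1 (adjusted p = 0.000777), and *SBT3.3* did so by 1.15 (adjusted p = 0.00341) and 1.38 (adjusted p = 6.09e-05). Because *AT1G42980* passed the filter through RNAi-B1 alone, its differences are a description of these samples. *BZIP60* was above RNAi-C1 by 0.53 (adjusted p = 0.000658), and its difference of 0.32 from RNAi-A2 was not called (adjusted p = 0.139).

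*PDF1.2* was lower in RNAi-B1 than in RNAi-A2 by 1.11 (adjusted p = 0.000352), while RNAi-C1 had 751, 738 and 763, a difference of 0.01 with a standard error of 0.09 (adjusted p = 0.948). *STZ* was below RNAi-A2 by 0.82 (adjusted p = 0.0041) and differed from RNAi-C1 by 0.05 with a standard error of 0.10 (adjusted p = 0.813). *ORA47* was lower in RNAi-B1 than in both lines, by 0.62 (adjusted p = 0.046) and 0.55 (adjusted p = 0.00773), and *AT4G29780* was lower than in RNAi-A2 by 0.86 (adjusted p = 0.00541). Compared with RNAi-A2, *AT4G27654* had the largest called difference among the genes named here, at 91.2, 73.2 and 85.6 in RNAi-B1 and 334 and 333 in RNAi-A2 (-1.82, adjusted p = 0.00126). *AT5G01740* had the largest called difference in the other direction, with 553, 508 and 514 against 149.6 and 207 (1.49, adjusted p = 0.000976). For *AT1G47400* and *AT4G26010* the differences between RNAi-B1 and RNAi-A2 were 0.12 each and were not called (adjusted p = 0.822 and 0.908).

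**Figure D5:**
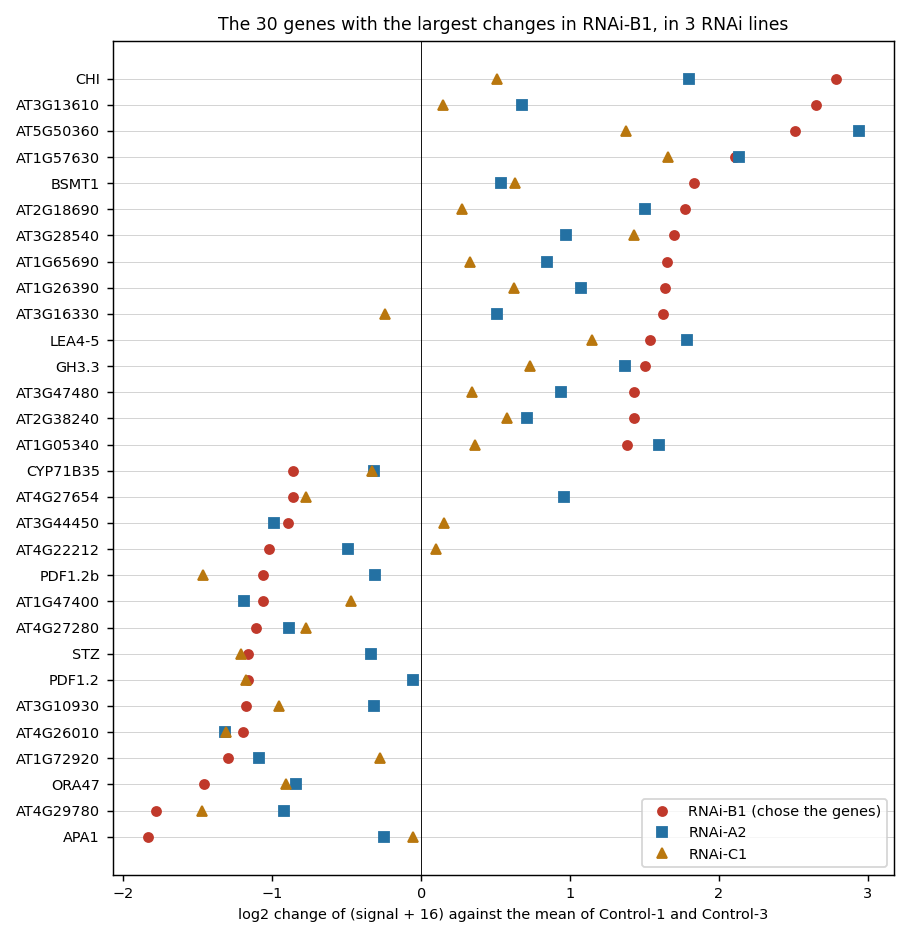
Change against the mean of both control lines of the 30 genes with the largest changes in RNAi-B1 (x axis, difference of log2(signal + 16)) in RNAi-B1 (circles), RNAi-A2 (squares) and RNAi-C1 (triangles). The genes were chosen by their values in RNAi-B1 and all lines share the control samples, so the circles were large by choice. The other lines range from values near the circle, as for *AT1G57630*, to values near 0, as for *APA1* at -0.25 and -0.06.

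Probe sets without a gene in the table held some of the largest changes. The probe set 266070_at had the largest increase, from 75.1 ± 15.7 (SD, n = 6) in the controls to 756 ± 21.2 (SD, n = 3) in RNAi-B1, a change of 3.1 with a standard error of 0.11 (limma adjusted p = 1.40e-08). The second was 256012_at, with 3.05. Among decreases, 245777_at fell from 959.5 ± 295 to 245 ± 36.7 (-1.85) and 263552_x_at from 179 ± 99.4 to 37.8 ± 15.7 (-1.76, adjusted p = 0.00612).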

How the data were processed

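The authors deposited MAS5 signals, a linear intensity per probe set and array, while their methods name PLIER. The deposited values of every array used had a trimmed mean of 499.8, as MAS5 scaling to a common target leaves it. The version of MAS5 is not given in the sources used here. No depth applies to arrays, and the number of samples and the background of dim probe sets limit the precision.

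From these values log2(signal + 16) was computed, and fold changes of dim probe sets are therefore understated. Of 22810 probe sets, 64 array controls were dropped. Tests were run on the 15089 probe sets in which RNAi-B1, Control-1 or Control-3 had a mean signal above 82.1 (35th percentile). A model with 1 mean per line was fitted to the 14 samples of the 3 RNAi lines and 2 control lines, with limma 3.58.1 in R 4.3.3 (9 residual and 3.45 prior degrees of freedom). Benjamini-Hochberg adjustment ran over all 15089 p-values, and an adjusted p under 0.05 was called. The methods state 3 samples per line, and 2 of RNAi-A2 were analysed here. Samples of a line are separate seedling pools.

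Genes were named for the 13513 probe sets with a single gene in the platform table (503 have several and 8730 none), of which 13436 matched the TAIR10.1 gene table. Named are the genes beside mapped inserts, the 15 largest increases and 15 largest decreases among called probe sets whose RNAi-B1 samples all lie on the same side of the control samples, called or most changed members of gene lists, and the largest differences from RNAi-A2 and RNAi-C1. The comparison, the members and the gene lists were chosen with earlier results of these data known. Lists of HSP90 genes, salicylic acid and abscisic acid synthesis, resistance proteins and other pathways without a tested probe set give no value. Annotated roles are from the GO terms in the supplement of the study.

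The model was tested on simulated data for this comparison, in which 50 probe sets each were changed 1.5-, 2-, 3- and 4-fold. It called 64%, 94%, 98% and 100% of them. Of the probe sets left unchanged, 18 were called, where 15089 was the number of all probe sets simulated. All lines were given the same mean apart from these changes, so differences between control lines were not simulated. The alternatives tried were an intensity trend, offsets of 4 or 64, filtering at the 50th percentile or not at all, quantile normalization, the replicate number as a block, other sets of samples, each control alone, the methods' t-test and each sample left out.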

Additional observations from a re-analysis of the deposited data

Results flagged for a closer look

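Effects against the shared controls that differed between RNAi-B1 and another RNAi line of the experiment by the direct limma test (adjusted p under 0.05) are listed here for the named genes that were called in RNAi-B1, lie beside an insert, or head the comparison of the 2 lines. Genes that passed the filter through RNAi-B1 alone are included, and their differences are a description of these samples. No line had 4 or more samples, so no line was screened for a single outlying sample.

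Compared with RNAi-A2, RNAi-B1 was higher in *AT5G01740* by 1.49, *AT1G42980* by 1.35, *GAT1_2.1*, a glutamine amidotransferase gene, by 1.32, *AT5G20790* by 1.19 and *SBT3.3* by 1.15. *AT5G20790* was lower than the controls in both lines, with 439, 377 and 415 in RNAi-B1 and 169 and 171 in RNAi-A2. RNAi-B1 was lower in *ORA47* (-0.62), *PUB19* (-0.73), *PDF1.2b* (-0.75), *STZ* (-0.82), *AT4G29780* (-0.86), *PDF1.2* (-1.11), *AT4G29610* (-1.12), *AT4G16260*, of the glucanase list (-1.14), *AT2G41730* (-1.28), *APA1* (-1.58) and *AT4G27654* (-1.82). *AT2G41730* moved in opposite directions against the controls, with -0.72 in RNAi-B1 and 0.55 in RNAi-A2, and so did *AT4G27654*, with -0.86 and 0.96.

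Compared with RNAi-C1, RNAi-B1 was higher in *AT3G13610* by 2.50, *CHI* by 2.28, *AT5G58840*, annotated to proteolysis, by 2.03, *AT5G51890*, annotated to the response to oxidative stress, by 1.90, *AT3G16330* by 1.87, *AT2G18690* by 1.5, *SBT3.3* by 1.38, *AT1G65690* by 1.32, *AT1G42980* by 1.2, *AT5G50360* by 1.13, *AT3G47480* by 1.09, *LTI30* by 1.02, *AT1G05340* by 1.02, *AT1G26390* by 1.02, *AT1G16850* by 0.83, *PUB19* by 0.81, *EXPA8* by 0.78, *GH3.3* by 0.77, *AT4G28140* by 0.76, *EXLA1* by 0.54, *BZIP60* by 0.53, *WES1* by 0.48 and *OPCL1* by 0.46. *AT5G51890* was near the control level in RNAi-B1 (0.06) and had 269, 236 and 350.4 in RNAi-C1 against 1154, 1069 and 1060.3 in RNAi-B1.

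RNAi-B1 was lower than RNAi-C1 in *AT4G27280* (-0.33), *AT1G04770* (-0.34), *UGT73C1* (-0.44), *ORA47* (-0.55), *AT1G47400* (-0.59), *AT2G41730* (-0.67), *AT1G71000* (-0.69), *AT1G72920* (-1.02), *AT3G44450* (-1.05), *AT4G22212* (-1.12), *AT1G27880* (-1.15), *EXPA20* (-1.30), *AT5G23830* (-1.51), *AT4G23680* (-1.65) and *APA1* (-1.78). *AT4G23680* had 345, 517 and 599 in RNAi-B1 and 1559.7, 1518 and 1485 in RNAi-C1, and was not called against the controls in RNAi-B1 (-0.04).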

How the results depend on the processing

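With 35 biological samples in the fit, 94 probe sets were called in RNAi-B1 against the controls, 5 between the controls, 1 between RNAi-B1 and RNAi-A2 and 401 between RNAi-B1 and RNAi-C1. Without 1 array of RNAi-A3 in that fit, these were 212, 7, 5 and 896. That array was taken as outlying from earlier results, and no value given here shows this. The methods' t-test with Benjamini-Hochberg adjustment called 412, 0, 0 and 24 (limma at an unadjusted p under 0.05 gave 1649 and 1567 for the counts of 0), and for RNAi-B1 against the controls 295 probe sets were higher and 91 lower at 1.5-fold and an unadjusted p under 0.05, as in the methods. With no filter, 72 were called between the controls and 67 between RNAi-B1 and RNAi-A2, and the intensity trend gave 153 for the latter. Leaving out 1 sample at a time gave 444 to 777, 56 to 93, 35 to 70 and 907 to 1399, and where RNAi-A2 kept 1 sample it was assumed to vary like the other lines. Quantile normalization gave 508 higher and 287 lower probe sets in RNAi-B1. After the mean of each line was taken off, samples with the same number correlated by -0.06 to 0.25 over 9 pairs, 4 of them over 0.1. Without values for samples of different numbers, this cannot decide whether the numbers pair samples. The replicate block gave 819, 112, 80 and 1614.

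Of 60 named genes called in RNAi-B1, none changed sign, 43 lost the call with 35 samples in the fit, and 39 when the 1 array of RNAi-A3 was left out of that fit. The call was lost by 25 under the methods' t-test, 9 with no filter, 12 against each control alone, and 16 without at least 1 of the 9 samples (11 each without replicate 2 or 3 of RNAi-B1). Among genes not called, the sign turned against 1 control line for *AT4G10800* (-0.28), *AT5G51890* (-0.0070) and *AT4G23680* (0.48). With a sample left out, the change spanned -0.029 to 0.28 for *UPB1*, -0.047 to 0.25 for *AT1G42960*, -0.032 to 0.18 for *AT1G25570* and -0.20 to 0.19 for *AT4G23680*. The cause was not tested.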
